A study of Mus musculus with 3 samples.

Results

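The clustered protocadherins are cell-surface adhesion proteins whose genes lie side by side in an alpha, a beta and a gamma cluster. Their levels are described here in RNA bound to tagged ribosomes of the mouse cortex-amygdala transition zone, a ventral region at the border between cortex and amygdala. The genes were chosen by name, as every listed symbol that starts with Pcdha, Pcdhb or Pcdhg followed by a letter or digit, which gave 59 of the 32531 genes listed in the count files. They comprised 12 numbered alpha genes, 21 beta genes, 12 gamma A genes, 7 gamma B genes, 5 C-type genes (Pcdhac1, Pcdhac2, Pcdhgc3, Pcdhgc4 and Pcdhgc5) and 2 entries, Pcdha6-g and Pcdha7-g, for transcripts that read through from an alpha exon into the gamma cluster. The annotation placed 57 of the 59 genes, all of them on the plus strand of chromosome 18 of the GRCm38 assembly, between position 36930184, the start of Pcdha1, and position 37841873, the end of Pcdhgc5.

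There was 1 group, with 3 immunopurified libraries of adult, untreated control mice of the Lypd1-EGFP/Rpl10a transgenic line OI82. In these mice EGFP fused to ribosomal protein L10a is made under Lypd1 regulatory DNA, so the captured RNA comes from cells with activity of this transgene and not from 1 defined cell type. Antibodies to EGFP pulled down the tagged ribosomes with the RNA on them (translating ribosome affinity purification, TRAP), and no input RNA was analysed here. The labels do not say if animals were pooled, so each SD and p-value measures only how the libraries, called replicates 1, 2 and 3, differ, which may be technical.

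Each neuron is known to express a small, largely random set of these isoforms, each from its own promoter, together with C-type isoforms, whose use is more regular. In the alpha and gamma clusters a variable exon, which encodes the extracellular, transmembrane and proximal cytoplasmic part, is spliced to 3 constant exons shared by the whole cluster, while each beta gene is a single exon. The extracellular domains bind only matching isoform sets on the opposed membrane, and this homophilic matching is known to serve self-avoidance of branches of the same neuron, axon tiling and neuronal survival. Choice of a promoter depends on CTCF, cohesin and DNA methylation. In bulk RNA of many cells these choices are averaged, and a lower level can mean fewer cells with an isoform or less RNA per cell, which cannot be told apart.

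Levels are given in CPM, the usual measure of a gene's share of all counts assigned to genes, or in CPM per kb of countable exon. The countable exon is the part of a gene that no exon of another listed gene covers, which for alpha and gamma genes is mainly the variable exon. Detected means that no library was below 1 CPM. The libraries held 18526251, 24690301 and 8668527 assigned counts in replicates 1, 2 and 3, so 3 counts, the limit that a count of 0 allows, stood for 0.162, 0.122 and 0.346 CPM, counting error only. All 6 neuronal markers were detected, with summed levels of 10802, 16257 and 8713 CPM in replicates 1, 2 and 3, and all 6 astrocyte markers, with 1176, 542 and 522 CPM. None of the 3 serotonergic markers (0 to 1.499678 CPM summed) and none of the 3 cholinergic markers was detected, although the cholinergic sum was 46.9 CPM in replicate 1, against 0.81 and 2.65 CPM in replicates 2 and 3.

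Of the 59 genes, 42 were detected, beside 39.3% of all listed genes. These were 18 of 21 beta genes, 12 of 12 gamma A genes, 6 of 7 gamma B genes, 4 of 5 C-type genes and 2 of 12 numbered alpha genes. The levels were modest. The 52 genes whose mean reached 1 CPM, called tested below, had a median of 9.36 CPM, beside 18.6 CPM over all 15336 genes that met this filter, and 12 of the 52 lay above the median of all.

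A further 5 entries could not be read at all. Pcdha4, Pcdha6, Pcdha7 and Pcdha6-g were listed at 0 in all 3 libraries, and Pcdha7-g had 1 count in replicate 2. For Pcdha4, Pcdha6 and Pcdha7, and for no other alpha gene, the files also list a read-through entry (Gm37013, Pcdha6-g and Pcdha7-g) that RefSeq starts at or next to the same variable exon. Under its usual settings HTSeq puts a read that falls on exons of several entries into an ambiguous class, which held 742037, 1017269 and 295168 reads in replicates 1, 2 and 3, so a 0 here does not show that the isoform was low. The other 54 genes are called readable.

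Together the clustered protocadherins reached 675 ± 359 CPM (SD, n = 3): replicate 1 had 589 CPM, replicate 2 367 CPM and replicate 3 1069.8 CPM. Replicate 3, the library with the least depth, was the highest. The 10 non-clustered protocadherins on a fixed list, single genes of the same family, were all detected, beside 39.3% of all listed genes. They summed to 972, 984 and 1013 CPM in the same libraries. Per kb of countable exon the median was 2.89 CPM per kb over the 54 readable clustered genes and 8.90 CPM per kb over the 10 non-clustered genes. Of the non-clustered genes Pcdh17 measured 191 ± 32.0 CPM, Pcdh1 166 ± 13.2 CPM and Pcdh10 155 ± 28.3 CPM.

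**Figure D1:**
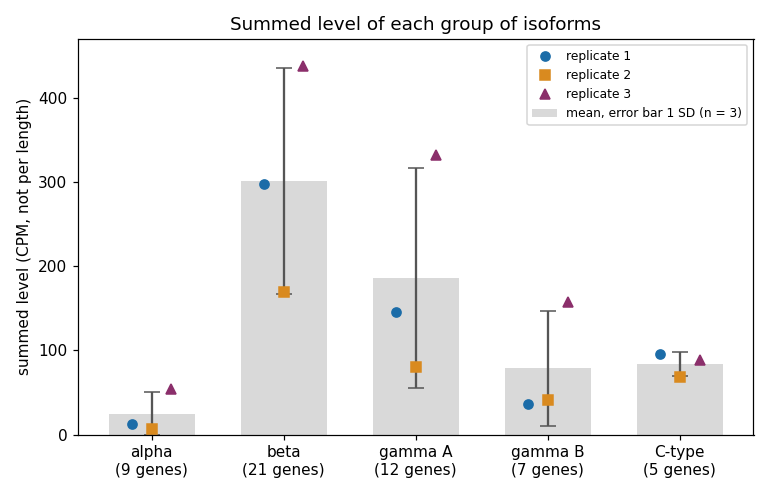
Summed level in CPM, not per length, of the alpha, beta, gamma A, gamma B and C-type genes; points are the 3 libraries, bars the mean and error bars 1 SD (n = 3), cut at 0. Replicate 3 is the highest library for 4 of the groups, and for the C-type genes, at 68.4 to 95.9 CPM, replicate 1 is.

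The beta genes were the group with the most counts, but also with the most countable exon, 88.0 of 185.6 kb. The sums and shares in this paragraph are not corrected for length. They summed to 298, 169 and 437 CPM in replicates 1, 2 and 3, which was 45.8 ± 4.85% of the counts of all 59 genes. Gamma A genes summed to 145, 80.5 and 332 CPM (25.9 ± 4.68%), and gamma B genes to 36.9, 41.6 and 158 CPM (10.8 ± 4.26%). C-type genes summed to 95.9, 68.4 and 88.4 CPM (14.4 ± 5.45%). The numbered alpha genes summed to 13.1, 7.09 and 53.99 CPM (3.07 ± 1.72%). The plot of summed levels shows that the C-type sum varied least between the libraries.

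Per kb of countable exon, the alpha genes were the lowest group. Averaged over a group's exon length, the level was 1.01 ± 1.05 CPM per kb for alpha genes, 3.43 ± 1.53 for beta genes, 3.70 ± 3.22 for gamma B genes, 4.69 ± 0.791 for C-type genes and 5.47 ± 3.85 for gamma A genes. The log2 difference from the alpha genes was 2.72 ± 0.50 for gamma A, 2.73 ± 1.38 for C-type, 2.19 ± 0.88 for beta and 2.07 ± 0.60 for gamma B genes. Each of these 4 differences was positive in 3 of 3 libraries and larger than its spread. Among the higher groups the order was not firm: gamma A minus beta was 0.54 ± 0.38 per kb of countable exon but −0.046 ± 0.379 per kb of coding sequence, and C-type minus gamma A was 0.0063 ± 0.8816.

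**Figure D2:**
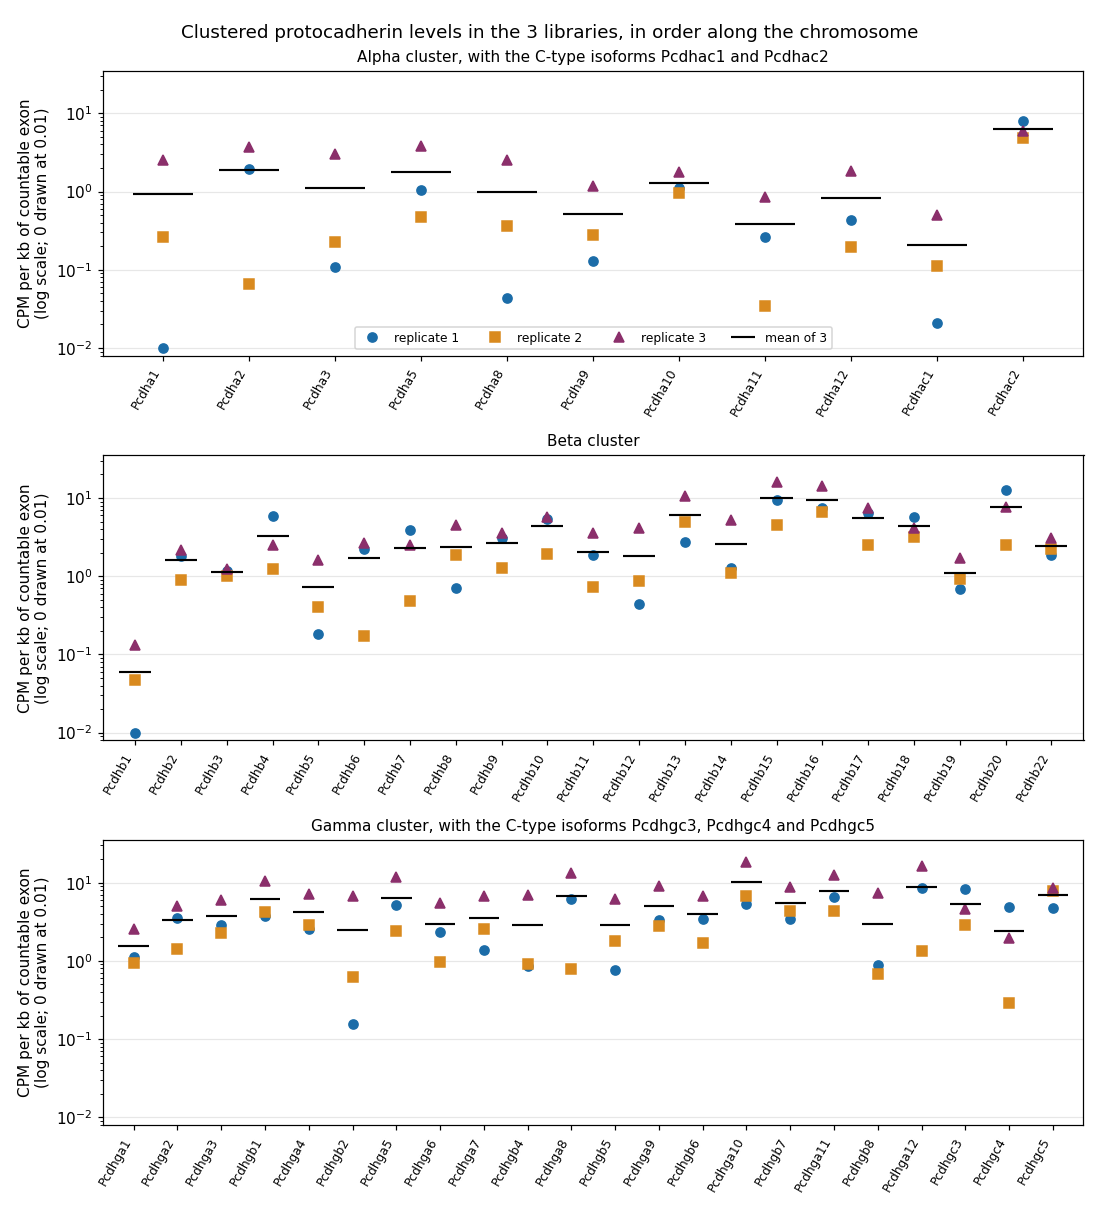
Level of each of the 54 readable genes in CPM per kb of countable exon (log scale, a value of 0 drawn at 0.01), with genes in their order along the chromosome and separate panels for the alpha, beta and gamma clusters. Points are the 3 libraries and lines their mean. Alpha genes other than Pcdhac2 sit low and spread widely, and replicate 3 is the highest point for all numbered alpha, gamma A and gamma B genes.

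The C-type isoforms differed widely among themselves, as the plot of these 5 genes shows. Pcdhgc5, whose protein binds GABA-A receptors at synapses, had 26.1, 42.6 and 46.8 CPM in replicates 1, 2 and 3, or 6.99 ± 1.99 CPM per kb. It was the highest of the 5 on average and in replicates 2 and 3. Pcdhac2, which is needed for tiling of serotonergic axons, had 24.3, 14.7 and 17.996 CPM, or 6.27 ± 1.61 CPM per kb. The defining serotonergic genes Tph2 and Slc6a4 were at or near 0 in the same libraries, at 0 to 0.808 CPM. Pcdhgc3, which binds the Wnt pathway scaffold Axin1 and shapes dendrite arbors, had 28.3, 9.76 and 15.5 CPM, or 5.28 ± 2.82 CPM per kb. Axin1 itself measured 7.88, 6.12 and 14.7 CPM. An exon annotated on the opposite strand covered 46.1% of the countable bases of Pcdhgc3, and the strand setting of the counts was not stated.

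Pcdhgc4, the gamma isoform that neurons need for survival, had 17.1 CPM in replicate 1, 1.01 CPM in replicate 2 and 6.81 CPM in replicate 3, or 2.39 ± 2.35 CPM per kb. Relative to its mean this was the widest spread of the 4 detected C-type genes. Its unadjusted p for variation between libraries was 0.0316 and its adjusted p was 0.583 (edgeR's goodness-of-fit test, Benjamini-Hochberg). Several marker lists were also highest in replicate 1. The summed level in replicates 1, 2 and 3 was 628, 389 and 392 CPM for GABAergic markers, 383, 231 and 224 CPM for oligodendrocyte markers and 95.2, 34.4 and 25.1 CPM for mural markers. The astrocyte and cholinergic sums given above were highest there too. Microglial markers summed to 39.7, 20.2 and 28.0 CPM, but of these Cx3cr1 alone had 19.8, 0.486 and 2.88 CPM. Csf1r, P2ry12 and Tmem119 were highest in replicate 3 and Aif1 in replicate 2. Other lists were not highest in replicate 1: the neuronal, glutamatergic and endothelial sums were highest in replicate 2, and the oligodendrocyte precursor and serotonergic sums in replicate 3. Single genes could differ from their list. Map2, Syn1 and Slc17a6 were highest in replicate 1, and the other neuronal and glutamatergic markers in replicate 2. Olig2 was highest in replicate 1, and the other precursor markers in replicate 3. Gja1 and Mog were highest in replicate 2, and the other astrocyte and oligodendrocyte markers in replicate 1. The part of these cell types in the Pcdhgc4 pattern was not tested.

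Pcdhac1, the other C-type gene of the alpha cluster, was almost absent, with 1, 7 and 11 counts, or 0.054, 0.284 and 1.27 CPM in replicates 1, 2 and 3. The ratio of Pcdhac2 to Pcdhac1 per kb was 380 in replicate 1 (exact 95% counting interval 67.9 to 15054), 43.8 in replicate 2 (21.1 to 109.8) and 11.99 in replicate 3 (6.52 to 24.5). With 0.1 CPM per kb added to each level, their log2 difference was 4.65 ± 1.37, positive in 3 of 3 libraries. Its size depends on that setting, since Pcdhac1 is near the floor. It was 2.59 ± 0.49 with 1 CPM per kb added, and 5.43 ± 1.80 with no length correction.

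**Figure D3:**
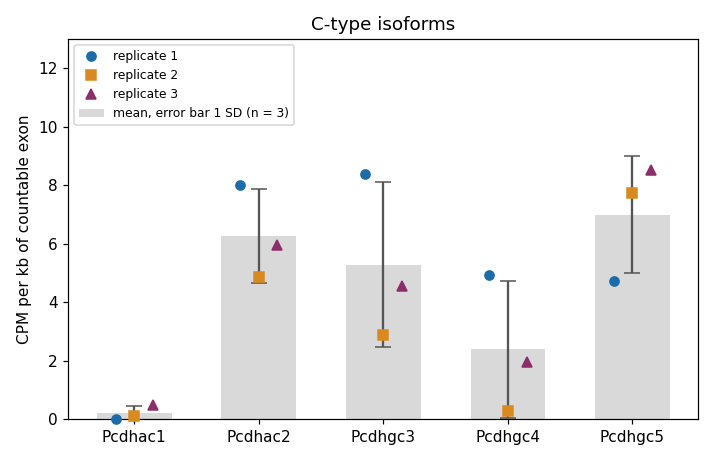
Level of the 5 C-type isoforms in CPM per kb of countable exon; points are the 3 libraries, bars the mean and error bars 1 SD (n = 3). Pcdhac1 lies near 0 in all libraries, and Pcdhgc4 is high only in replicate 1 among its own values.

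Of 4 pairs of C-type genes compared, none reached significance, since with 3 libraries the smallest two-sided p of the exact permutation test, which flips the signs of the differences, is 0.25. Pcdhac2 minus Pcdhac1 gave that smallest p (adjusted p = 0.667 over the 4 pairs, Benjamini-Hochberg). Pcdhgc5 minus Pcdhgc4 was 2.11 ± 2.19 (log2), with Pcdhgc5 higher in 2 of 3 libraries (exact permutation p = 0.5, adjusted p = 0.667). Pcdhgc5 minus Pcdhgc3 was 0.49 ± 1.15, positive in 2 of 3 libraries (exact permutation p = 0.5, adjusted p = 0.667). Pcdhac2 minus Pcdhgc5 was −0.14 ± 0.77, negative in 2 of 3 libraries (exact permutation p = 1, adjusted p = 1). Per kb of countable exon the last 3 differences were no larger than their spread. Per kb of coding sequence, a setting chosen after the values were seen, they were 2.81 ± 2.25, 1.17 ± 1.16 and −1.05 ± 0.78. Each was then larger than its spread, Pcdhgc5 minus Pcdhgc3 only just, with exact permutation p of 0.25, 0.5 and 0.25. With no length correction each was also larger than its spread.

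Among the numbered alpha genes, which encode the isoforms once called cadherin-related neuronal receptors, Pcdha2, Pcdha5 and Pcdha10 had the highest means. Pcdha2 had 4.80, 0.162 and 9.34 CPM in replicates 1, 2 and 3, so it was nearly missing from replicate 2. Pcdha5 had 2.43, 1.09 and 8.88 CPM and Pcdha10 had 2.81, 2.39 and 4.499 CPM, and these were the only numbered alpha genes detected in all 3 libraries. Several others were seen mainly in replicate 3. Pcdha1 had 0, 0.648 and 6.23 CPM, from 0, 16 and 54 counts. Pcdha3 had 0.270, 0.567 and 7.498 CPM, and Pcdha8 had 0.108, 0.891 and 6.23 CPM. Pcdha9, Pcdha11 and Pcdha12 had means of 1.30 to 2.02 CPM and fell short of 1 CPM in at least 1 library. An exon on the opposite strand covered 71.4% of the countable bases of Pcdha11.

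The beta genes, which lack the shared constant exons and so end in short cytoplasmic tails of their own, held the highest gene of all by CPM. Pcdhb16 had 38.5, 34.4 and 74.2 CPM in replicates 1, 2 and 3, and was clearly present in every library. Pcdhb15 had 26.3, 12.5 and 45.5 CPM and Pcdhb20 had 44.8, 9.03 and 27.1 CPM. Per kb these 3 genes were also the highest of the beta cluster, at 9.38 ± 4.19, 10.0266 ± 5.91 and 7.58 ± 5.03 CPM per kb. At the other end, Pcdhb1 had 0, 3 and 3 counts, at or below the limit for a count of 0. Pcdhb5 had 0.648, 1.42 and 5.65 CPM, and Pcdhb6 had 8.42, 0.648 and 9.92 CPM. Pcdhb3 was low but even, at 4.48, 3.81 and 4.73 CPM.

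Some beta genes share sequence. In 9 of the 21, more than 5% of the 50-base words of the transcript also occurred in a transcript of another locus, with a highest share of 11.99% in Pcdhb12, while no readable gene of the other groups passed 1.66%. Reads that align to more than 1 place are kept apart in the files, at 16.5% to 32.7% of entries, so the levels of such genes can be too low.

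The gamma A genes were detected throughout. Pcdhga12 had 39.0, 6.08 and 74.2 CPM in replicates 1, 2 and 3, Pcdhga10 13.9, 17.8 and 47.6 CPM and Pcdhga11 17.4, 11.5 and 32.9 CPM. Per kb, Pcdhga10 was the highest of all readable genes at 10.1 ± 7.06 CPM per kb, but its whole countable exon is overlapped by an exon annotated on the opposite strand. For Pcdhga11 such an exon covered 52.4% of the countable bases. The lowest gamma A genes by CPM were Pcdhga1 at 3.62, 3.04 and 8.31 CPM, Pcdhga4 at 3.99, 4.496 and 11.4 CPM and Pcdhga6 at 6.15, 2.51 and 14.5 CPM. Thus the mean of the highest gamma A gene was 39.8 CPM and that of the lowest 4.99 CPM. Pcdhga4 has only 1.57 kb of countable exon. Its 4.23 CPM per kb lay above Pcdhga2 at 3.34, Pcdhga7 at 3.54 and Pcdhga3 at 3.70 CPM per kb.

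In the gamma B group, Pcdhgb1 had 9.93, 11.2 and 27.5 CPM, Pcdhgb7 8.80, 11.1 and 22.7 CPM and Pcdhgb5 3.56, 8.22 and 28.1 CPM in replicates 1, 2 and 3. The lowest means by CPM were those of Pcdhgb2, at 0.432, 1.70 and 18.7 CPM, Pcdhgb8, at 2.21, 1.70 and 18.5 CPM, and Pcdhgb6, at 8.91, 4.33 and 17.3 CPM. This order depended on length, since per kb Pcdhgb6 stood at 3.97 and Pcdhgb5 at 2.88 CPM per kb. Pcdhgb2 and Pcdhgb8 were thus low in replicates 1 and 2 and well above 10 CPM in replicate 3. An exon on the opposite strand covered 29.7% of the countable bases of Pcdhgb7. Pcdhgb8 is annotated as a polymorphic pseudogene.

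Expression was spread over many isoforms. The inverse Simpson index of the shares per kb, which counts how many equally used isoforms would give the same concentration, was 29.0, 27.7 and 35.03 in replicates 1, 2 and 3, out of 54 readable genes. The 5 highest genes took 27.9%, 30.3% and 24.8% of the summed level per kb. Within the alpha group the index was 4.06, 5.39 and 7.65 out of 9, within the beta group 11.4, 11.8 and 12.6 out of 21, and within gamma A 9.32, 8.27 and 9.69 out of 12. Within gamma B it was 4.43, 4.58 and 6.77 out of 7. Replicate 3 had the most even use in each of these 4 groups. When the 54 genes were ordered by mean level per kb, 50 of the 53 steps between neighbours were no larger than their spread, so the exact order is not resolved by 3 libraries.

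Level tended to rise with position in each of the 3 libraries in 2 groups, as the plot in chromosomal order shows. Among the 21 beta genes the mean level per kb tended to increase from the alpha side towards the gamma side (Spearman's rho 0.57 over genes, and 0.44, 0.65 and 0.61 in replicates 1, 2 and 3). Among the 12 gamma A genes rho was 0.81, with 0.70, 0.35 and 0.85 in the 3 libraries. Pcdhga10 and Pcdhga11, near the far end of this group, have opposite-strand exons over 100% and 52.4% of their countable bases. The 9 alpha genes gave −0.53, with 0.25, −0.05 and −0.67 in replicates 1, 2 and 3, and the 7 gamma B genes 0.11. Gamma A and gamma B genes are interleaved along the chromosome. Over these 19 genes together rho was 0.46, with 0.30, 0.14 and 0.61 in replicates 1, 2 and 3. With coding length in place of exon length, rho was 0.76 for beta and 0.90 for gamma A genes, −0.50 for alpha and −0.21 for gamma B genes. These are descriptions over genes that share libraries and sequence, not tests over replicates.

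The libraries did not differ evenly over the cluster. Of the 52 tested genes, 45 (86.5%) had their highest CPM in replicate 3, beside 39.2% of all 15336 tested genes, and none had it in replicate 2, beside 29.2%. All 9 alpha, all 12 gamma A and all 7 gamma B genes among them were highest in replicate 3, also with TMM or DESeq2 scaling. Of the beta genes 16 of 20 were, and 14 of 20 with either scaling. Of the 4 C-type genes tested, only Pcdhgc5 was highest in replicate 3, while Pcdhac2, Pcdhgc3 and Pcdhgc4 were highest in replicate 1, beside 31.6% of all tested genes. The remaining genes highest in replicate 1 were Pcdhb4, Pcdhb7, Pcdhb18 and Pcdhb20. With TMM scaling 42 of the 52 were highest in replicate 3, beside 32.5% of all tested genes. All 52 were higher in replicate 3 than in replicate 2, beside 56.5% of all tested genes, and 51 of 52 with TMM scaling, beside 48.7%. This count was chosen after the values were seen. Pcdha1, Pcdha3, Pcdha8, Pcdha9, Pcdha11 and Pcdha12 met the filter of a mean of 1 CPM only through replicate 3. Without replicate 3, 46 clustered genes were tested. For those alpha genes the filter itself thus set replicate 3 as the highest library.

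**Figure D4:**
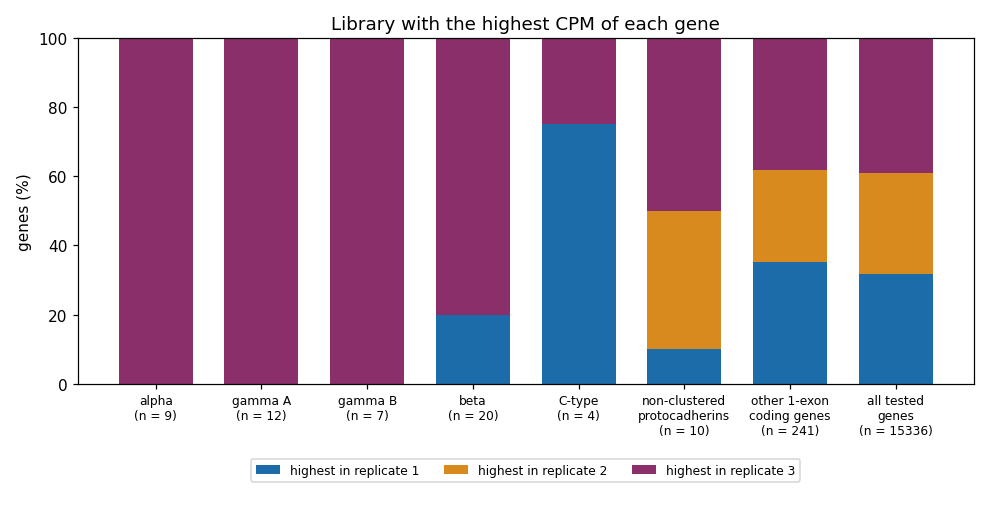
Share of genes (%) whose highest CPM was in replicate 1, 2 or 3, for the alpha, gamma A, gamma B, beta and C-type genes that were tested, the 10 non-clustered protocadherins, other protein-coding genes with 1 exon, and all tested genes (n below each bar). Replicate 3 takes 100% of the alpha, gamma A and gamma B bars, 80.0% of the beta bar and 39.2% of the bar of all tested genes. Several of the alpha genes met the filter for tested genes only through replicate 3.

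Some other measures had the same order of libraries, and others did not. Reads in no annotated feature made up 31.4%, 25.6% and 45.3% of all entries in replicates 1, 2 and 3, the same order of libraries as for the summed protocadherins. The nuclear RNA Malat1 took 3.45%, 1.44% and 8.25% of assigned counts, and the non-coding RNA Meg3 took 2.21%, 1.39% and 4.67%. In contrast, ambiguous reads made up 1.38%, 1.98% and 1.26% of all entries, and reads that align to more than 1 place 32.7%, 24.3% and 16.5%. Lypd1, whose regulatory DNA drives the tag, had 232, 601 and 272 CPM, and so was highest in replicate 2. The part of these measures in the result was not tested. Of 241 other protein-coding genes with 1 exon, the structure that the beta genes have, 38.2% were highest in replicate 3. Olfactory receptor genes, which brain neurons rarely use, averaged 0.0076, 0.0018 and 0.0088 CPM per kb over 1091 genes, against 3.18, 1.97 and 5.76 CPM per kb for the readable clustered protocadherins.

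No single gene passed the test for variation between the libraries. So few of all tested genes passed it that 52 genes are too few to read a difference from. Of the 52 genes tested, 0 had an adjusted p below 0.05 (edgeR's goodness-of-fit test around the trended dispersion, Benjamini-Hochberg over 15336 genes), beside 0.209% of all tested genes, and DESeq2 marked 0 of them as dispersion outliers. With 1 common dispersion for all genes 4 of 52 were called (Pcdha1, Pcdha3, Pcdha8 and Pcdhgb2), beside 5.09% of all tested genes. At an unadjusted p below 0.05 there were 11 of 52 (21.2%), beside 7.82% of all tested genes, and without replicate 3 there were 3 of 46 (6.52%), beside 7.22% of all genes tested in that fit. The excess over all genes was not seen in that fit. It had fewer libraries, and alpha genes that met the filter only through replicate 3 dropped out. The part of replicate 3 in the excess was not tested. The smallest p was that of Pcdhga12, which was 6.08 CPM in replicate 2 and at least 39.0 CPM in the others (unadjusted p = 0.000387, adjusted p = 0.106, edgeR). Pcdhga8, named after its values were seen, was next, at 15.7, 1.94 and 33.0 CPM (adjusted p = 0.255, edgeR), then Pcdhgb2 (adjusted p = 0.279, edgeR). The others below 0.05, named after their values were seen, were Pcdha1, Pcdha2, Pcdhb14, Pcdhb20, Pcdhgb4, Pcdhgb5, Pcdhgb8 and Pcdhgc4.

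The spread of the clustered genes was also wide as a whole. The deviance from the fit, scaled by its 2 degrees of freedom, had a median of 1.33 over the 52 genes, beside 0.703 over all tested genes. Among the detected genes the highest library was 3.52 times the lowest at the median of the 42 clustered genes, beside 1.95 times at the median of all 12773. Across genes, the log2 levels of the 54 readable genes correlated between libraries at Pearson's r of 0.74 (replicates 1 and 2), 0.72 (replicates 1 and 3) and 0.798 (replicates 2 and 3), beside 0.89, 0.89 and 0.90 for all tested genes. The ranges of level differ between these sets, and genes are not independent replicates.

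Genes that act on or with clustered protocadherins were nearly all detected. Of 14 measured genes of promoter choice and chromatin architecture, 13 were detected, beside 39.3% of all listed genes. By the edgeR test 0 of 14 had an unadjusted p below 0.05, beside 7.82% of all tested genes, which is too small a list to read a difference from. The cohesin subunit genes Smc1a and Smc3 measured 162 ± 31.0 and 145 ± 43.2 CPM. Ctcf, which marks the promoters used, had 66.7, 72.6 and 56.8 CPM in replicates 1, 2 and 3. Of the DNA methyltransferase genes, Dnmt1 had 47.4, 41.4 and 51.5 CPM, Dnmt3a 172.6, 90.4 and 144.9 CPM and Dnmt3b, the one gene of the list not detected, 7.45, 4.05 and 0.923 CPM. The order of the libraries differed between these 3 genes.

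Of the 10 cytoplasmic partner genes all were detected, beside 39.3% of all listed genes. By the edgeR test 0 were called, beside 0.209% of all tested genes, so the list is too small to read a difference from. It was led by the GTPase gene Rac1 at 850 ± 279 CPM and the kinase gene Ptk2b at 315 ± 80.9 CPM. Ctnnb1, which encodes beta-catenin, followed at 265 ± 116 CPM. Ptk2b encodes the kinase PYK2, which clustered protocadherins are known to inhibit. All 7 genes of the WAVE complex, which drives actin assembly, were detected, beside 39.3% of all listed genes. Cyfip2 led at 1161 ± 328 CPM, with Nckap1 at 949 ± 345 CPM and Abi2 at 401 ± 109 CPM. Wasf1 had 180.0, 412 and 160 CPM and was the only gene of these lists with an unadjusted p below 0.05 (adjusted p = 0.614, edgeR), beside 7.82% of all tested genes. The sheddase and gamma-secretase genes that cleave these proteins were all 6 detected, beside 39.3% of all listed genes. Their levels were lower, among them Ncstn at 37.6 ± 7.09 CPM and Adam10 at 22.0 ± 6.88 CPM. Of the synaptic partner genes, Nlgn2 measured 143 ± 29.8 CPM and Nlgn1 89.2 ± 30.1 CPM.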

How the data were processed

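Ribosome-bound RNA of 3 libraries was sequenced. The authors deposited raw counts per gene, 1 file per library. The submitters' processing notes name STAR 2.0.0e, HTSeq and the build mm10. Not given in the sources used here were the annotation, HTSeq mode, strand setting and read length. The 5 summary classes and an entry without a gene name, which held 0 counts, stayed out of library sizes.

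Members, lists and tests were chosen with earlier results of these data known. Named genes were all C-type isoforms, the 3 highest and 3 lowest of each other group by mean CPM, genes not detected, and the 3 highest of each further list; others were chosen after their values were seen, and some genes of these lists are not reported here. Exon lengths came from GENCODE M21 (GRCm38) and were matched by symbol for 71.2% of all listed genes and for 57 of 59 members. That annotation names a pair of genes Pcdha11; the one at the RefSeq start of Pcdha10 was taken as Pcdha10.

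The test of variation used edgeR 4.0.16 under R 4.3.3 (TMM, intercept-only model, trended dispersion, chi-square on 2 degrees of freedom, Benjamini-Hochberg over 15336 genes, threshold 0.05), a script that was tested on simulated data. C-type pairs were compared as log2(CPM per kb + 0.1) with exact sign-flip permutation tests. Alternatives used DESeq2 1.42.0 scaling, other filters, lengths and thresholds, and left out each library. Other steps used Python 3.11.15, pandas 2.3.3, numpy 2.4.6, SciPy 1.17.1 and matplotlib 3.10.9.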

Additional observations from a re-analysis of the deposited data

How the results depend on the processing

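Of 165 recomputed values of 24 results, 148 stayed within the spread or within 1.5 times the count, or for the 4 C-type pairs kept the sign. With a common dispersion in edgeR 4 genes (Pcdha1, Pcdha3, Pcdha8 and Pcdhgb2) were called as varying, beside 5.09% of all tested genes, against 0 otherwise and 0 to 0 with a replicate left out. The number with an unadjusted p below 0.05 was 3 to 11 with a replicate left out, or 6.52% to 21.2% of those tested, beside 6.55% to 7.54% of all genes. Detected genes numbered 36 to 44 with other thresholds and 42 to 46 with a replicate left out, and the summed level was 478 to 830 CPM with a replicate left out. The beta share of the summed level per kb was 38.8 ± 5.56%, and 52.8% with whole exon length, 45.9% with no length correction and 46.3% with coding length. The gamma A share was 31.5 ± 4.15%, and 24.1%, 25.9% and 25.8% under the same settings. Gamma A minus beta changed sign with whole exon length (−0.30), with no length correction (−0.026) and with coding length (−0.046). C-type minus beta, 0.54 ± 0.51, was −0.20 with whole exon length, and beta minus alpha was 3.22 with it. Whole exon length counts constant exons whose reads are ambiguous, so it lowers alpha and gamma genes by construction. Pcdhac2 minus Pcdhgc5 was −0.59 to 0.12, and 0.043 without replicate 3 with a replicate left out. Of the 10 highest genes per kb, 6 remained with no length correction and with coding length. Coding length and the other settings on highest libraries were chosen after seeing the data. Words unique in the genome could not be counted and were not run; words in transcripts were used in their place. TMM scaling shifted replicate 3 by 0.12 and replicate 2 by −0.097 on the log2 scale relative to library totals. No paired analysis was possible because the series has 1 group. The numbered alpha genes rest on only 0 to 89 counts a library, and the part of depth in this was not tested.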
